A study of Mus musculus with 44 samples.

Results

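The expressed Zfp genes of the mouse growth plate were 181 of the 343 genes in the count table whose symbol is Zfp followed by a number. They were selected on level alone, as those with a mean of at least 5 CPM (counts scaled to a common library total, in counts-per-million units) over the 16 wild-type (WT) input libraries, so their levels in these libraries are a description. Another 162 Zfp genes fell below, of which 2 had no count in any of the 16 libraries. Just inside the threshold were Zfp12 (5.07 CPM), Zfp788 (5.04 CPM) and Zfp420 (5.02 CPM), and just outside it Zfp182 (4.99 CPM), Zfp30 (4.97 CPM) and Zfp707 (4.96 CPM). At 10 CPM instead of 5, 102 genes would have remained. The whole table held 46831 usable genes, of which 10493 reached 5 CPM, and these 10493 were chosen in the same way as the Zfp genes and serve as their closest comparison.

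The libraries came from SLIM-seq, a low-input method in which an antibody against N6-methyladenosine (m6A) captures modified RNA of sorted cells (IP). RNA-seq of the unselected RNA stood beside it (input). Per the methods, total RNA met the antibody and only the amplified cDNA was fragmented. Cells were sorted from the long-bone growth plate of C57Bl6 mice on postnatal day 3, pooled across animals of either sex, after removal of CD45, Ter119 and Tie2 positive cells. The 8 WT populations were skeletal stem cells (SSC), the pre-BCSP and BCSP progenitors (pBCSP, BCSP), pro-chondrogenic progenitors (PCP), the THY and 6C3 stromal subsets, B-cell lymphocyte stromal progenitors (BLSP) and cells expressing hepatic leukemia factor (HEC), each with 2 IP and 2 input libraries. The other 12 libraries were labelled Mettl3cko and covered SSC, pBCSP and BCSP with 2 IP and 2 input libraries each. They came from Mettl3 fl/fl;Col2a1-Cre mice, in which the m6A methyltransferase gene is deleted in cells that express the Cre. Per the study, Col2a1 marks stem and progenitor cells of the growth plate, and Col2-Cre cells contribute to chondrocytes, osteoblasts and stromal cells. Its controls were Mettl3 fl/fl mice. Here SSC, pBCSP and BCSP are called the stem and progenitor populations and the other 5 the downstream populations.

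Zfp is the mouse name for zinc finger protein, and most of these proteins are built from repeated C2H2 fingers, each a short fold around a zinc ion that reads a few bases of DNA. Many carry a KRAB box, which recruits Trim28 and the histone methyltransferase Setdb1 to silence transposable elements and imprinted genes, and they lie in clusters of related copies along the chromosomes. Their fingers are usually encoded in 1 long last coding exon, and m6A is known to accumulate in long internal exons and around stop codons, where Mettl3 and its partners deposit it.

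All 181 genes were found in the GENCODE vM21 annotation, 179 of them as protein-coding genes. Zfp783 was not among the 179 and is annotated as a transcribed unprocessed pseudogene. A C2H2 finger pattern was found in 173 of these 179 (96.6%), and 81 (45.3%) had 10 fingers or more. The 6 without a match were Zfp36, Zfp185, Zfp330, Zfp365, Zfp503 and Zfp703, several of which are known to carry other zinc-binding folds. A strict KRAB pattern matched 36 of 179 (20.1%), against 4 of 9774 other protein-coding genes with at least 5 CPM, and it misses diverged boxes, since the known KRAB protein Zfp57 was not matched. The longest coding exon had a median of 1382 bases and held a median of 79.2% of the coding sequence, against 264 bases and 23.9% in the other protein-coding genes at this level.

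Consecutive fingers are joined by a short linker, TGEKP in its most common form, which was found 596 times in 116 of the 179 proteins. Its coding sequence is shown because it recurs within and between these mRNAs and because many of its copies hold AAACC, one of the forms of the m6A consensus. The 5 most frequent 15-base versions, on the coding strand, 5′ to 3′, with AAACC in capitals, were as follows.
linker 1: acaggagagAAACCt
linker 2: actggagagAAACCt
linker 3: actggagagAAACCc
linker 4: actggagagaagccc
linker 5: actggagagaagcct

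The first of these occurred 36 times in 12 genes, the second 35 times in 19 genes and the third 34 times in 18 genes, of 574 linker copies from which sequences were taken. Linkers 4 and 5, which lack AAACC, occurred 19 and 18 times. AAACC was present in 299 of the 596 linkers (50.2%), counted on the coding strand only. Over whole transcripts, AAACC occurred a median of 1.57 times per kb in the Zfp genes and 0.93 times per kb in the other protein-coding genes, whereas another form of the consensus, GGACT, occurred 0.898 and 1.05 times per kb. The sequences and annotation are GENCODE vM21 on GRCm38.

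The 181 genes were spread over 20 chromosomes, with 45 on chromosome 7, 22 on chromosome 17 and 13 each on chromosomes 6 and 8. Of them, 73 lay in 22 clusters, in which neighbouring Zfp genes of this set were at most 200000 bases apart. The largest cluster held 10 genes from Zfp84 to Zfp146 on chromosome 7 between 29768552 and 30169750. Close paralogs in such clusters share sequence, and how reads that match several of them were counted is not given in the sources used here, so differences between neighbours of near-identical sequence are uncertain. Exons of 55 of the 181 genes shared bases with another annotated gene, and for 9 genes, including Zfp90, Zfp106, Zfp335, Zfp507 and Zfp532, more than 20% of the exon bases did, mostly with genes on the opposite strand. Whether counting used strand is not given either.

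Library totals ranged from 19853970 to 44219035 counts in WT inputs, 16506779 to 35890123 in WT IPs, 30059074 to 35341482 in Mettl3cko inputs and 22085115 to 33154761 in Mettl3cko IPs. The 181 genes together took 3606 to 4567 CPM in the 6 stem and progenitor inputs and 3760 to 5462 CPM in the 10 downstream inputs, so the groups overlapped. The summed level of 6 cartilage markers was 85792 to 99432 CPM in stem and progenitor inputs against 8180 to 92493 CPM downstream, and that of 6 bone markers 5248 to 11261 against 71647 to 134571 CPM. Of the sets for other cell types, the 8 blood markers summed to 7.79 to 19.1 CPM in stem and progenitor inputs and 12.2 to 109 CPM downstream, the 5 endothelial markers to 1.04 to 20.1 and 1.06 to 92.7 CPM, and the 5 muscle markers to 19.4 to 51.2 and 5.56 to 15.7 CPM. Ptprc, which defines blood cells, was at 0 in SSC, pBCSP and BCSP, Cdh5 of endothelium at 0 in SSC, and Myod1 of muscle at 0 in SSC and BCSP. Others of these lists were not: Tnnt3 of muscle had means of 45.8 CPM in BCSP and 25.3 CPM in pBCSP, with SSC close to the latter, against 3.69 to 5.90 CPM downstream, Cd79a of blood 1.78 to 3.33 against 0.171 to 0.606 CPM, and Lyz2 3.22 to 5.68 against 1.83 to 7.55 CPM. Of the sorting genes, Thy1 was highest in PCP, THY and BLSP and Enpep in 6C3 and HEC. Hlf, after which HEC is named, had a mean of 4.07 CPM there, below BLSP (6.34 CPM) and PCP (5.14 CPM). Itgav had means of 32.6 to 54.2 CPM in the stem and progenitor populations and 80.7 to 118 CPM downstream. Eng was highest in BCSP (122 CPM) and PCP (117 CPM), and Cd200 in SSC (205 CPM) and BCSP (203 CPM). These cell type signatures move with the comparison of populations, and their part in the Zfp differences was not tested. In bulk libraries, fewer cells of a type and less RNA per cell cannot be told apart. Mettl3 itself had 15.8 to 22.2 normalised CPM in the 6 inputs labelled Mettl3cko and 11.5 to 19.3 CPM in the 6 WT inputs (log2 difference 0.25 ± 0.15 SE, adjusted p = 0.362, edgeR), so the total Mettl3 count did not show the deletion. A count over the whole gene does not check the removal of some of its exons. Since the labels carry wild type in their genotype entry for every library, the genotype rests on the library titles and on KO in the count column names. The study itself reports the deletion by qRT-PCR and by western blot in SSC, and less m6A in stem and progenitor cells by dot blot. From its m6A profiles it also reports significantly lower m6A levels in SSC, pBCSP and BCSP upon the deletion.

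Compared between genes per kb of exon, Zfp36 stood highest, at 468 CPM or 135 CPM per kb. It encodes tristetraprolin, a CCCH protein that drives decay of mRNAs with AU-rich elements. Zfp706 followed at 55.8 CPM per kb, then Zfp948 (36.4 CPM per kb), Zfp869 (24.3 CPM per kb) and Zfp207 (20.1 CPM per kb), the last encoding a spindle and kinetochore protein. Zfp260, Zfp703, Zfp830, Zfp422 and Zfp263 completed the first 10, between 13.8 and 15.5 CPM per kb. Zfp36, Zfp706 and Zfp207 had at most 2 C2H2 patterns each, while Zfp948, Zfp869 and Zfp260 had 12 to 15.

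Its mean normalised level was 561 ± 76.2 CPM in SSC (SD, n = 2) and 654 ± 273 CPM in PCP (SD, n = 2), the highest, against 272 ± 126 CPM in 6C3 (SD, n = 2), the lowest. Because the replicates of PCP and 6C3 lay far apart, the neighbours in this order did not differ beyond their spread, and the test over the 8 populations gave adjusted p = 0.054.

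The first comparison asked how Zfp mRNA differed between the stem and progenitor populations and those downstream in the skeletal hierarchy. Of the 181 genes, 43 were higher in SSC, pBCSP and BCSP and 50 were lower, at an adjusted p below 0.05 in edgeR. Of the whole transcriptome, 23.1% of 20060 tested genes were higher and 28.3% lower, near the Zfp shares of 23.8% and 27.6%. Among all genes with at least 5 CPM, the closest comparison, 31.4% were higher and 34.1% lower. The Zfp shares were below these, and this difference was not tested. The counts are therefore given as no result about the family. The median log2 change was −0.02 in the Zfp genes, −0.11 in all tested genes and −0.03 in genes with at least 5 CPM. By the test over all 8 populations, 65 Zfp genes differed (35.9%), against 40.1% of all tested genes and 58% of those with at least 5 CPM. For 34 Zfp genes the 6 and the 10 libraries did not overlap, which also held for 16.5% of all tested genes and 25.6% of genes with at least 5 CPM. The family thus had no common direction, and the account turns to its individual genes.

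**Figure D1:**
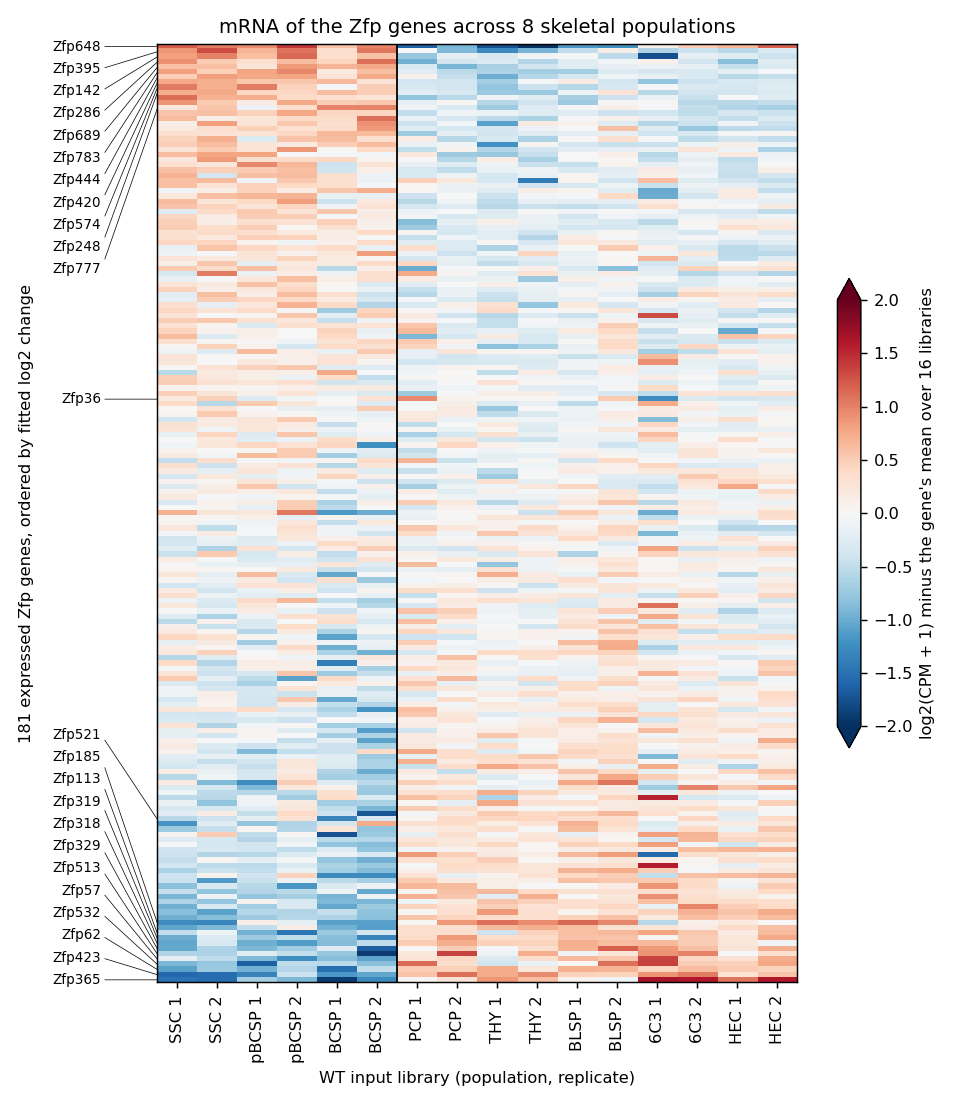
Normalised mRNA of the 181 expressed Zfp genes (rows) in the 16 WT input libraries (columns), as log2(CPM + 1) minus the gene's mean, with genes ordered by the fitted log2 change of stem and progenitor over downstream populations and the vertical line between the 2 groups. Genes at the top were higher in SSC, pBCSP and BCSP, those at the bottom were lower, and the broad middle showed little difference.

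Zfp648 had the largest rise in the stem and progenitor populations. It is a C2H2 gene with 10 finger patterns on chromosome 1 between 154201187 and 154205689. Its 6 libraries of SSC, pBCSP and BCSP had 8.42, 11.7 and 15.9 CPM as lowest, median and highest, and the 10 downstream libraries 0.619, 2.12 and 13.4 CPM. The fitted difference was 4.23-fold (log2 2.08 ± 0.20 SE, adjusted p = 3.77e-07), but the groups overlapped. The overlap came from HEC (11.2 ± 3.03 CPM, SD, n = 2) and 6C3 (7.02 ± 1.50 CPM, SD, n = 2), whereas THY, PCP and BLSP had 0.761 ± 0.201, 1.72 ± 0.923 and 1.81 ± 0.0777 CPM (SD, n = 2 each).

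The next 9 genes of this group did not overlap between the 2 groups of libraries. Zfp395 had 27.4, 43.2 and 54.4 CPM in stem and progenitor libraries and 8.31, 14.7 and 23.4 CPM downstream, a 2.80-fold difference (log2 1.48 ± 0.17 SE, adjusted p = 2.2e-06). Zfp142 had 19.0 to 34.1 CPM against 3.70 to 14.7 CPM (log2 1.22 ± 0.21 SE), and Zfp574 27.6 to 58.6 CPM against 15.9 to 27.6 CPM (log2 1.04 ± 0.13 SE). The 2 Zfp574 ranges almost touched, while those of Zfp142 were well apart. The other 6, Zfp286, Zfp689, Zfp783, Zfp444, Zfp420 and Zfp248, had log2 changes from 1.02 to 1.20, each about a doubling. Zfp689 lay on chromosome 7 in a cluster of 6 expressed Zfp genes and Zfp783 on chromosome 6 in a cluster of 7. Zfp783, annotated as a pseudogene, shares 290 exon bases with Zfp956 of that cluster on the same strand.

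Zfp365 and Zfp423 had the largest falls. Zfp365, which encodes a DISC1-binding protein known from neurons and matched no C2H2 pattern, had 2.96, 4.71 and 8.35 CPM in stem and progenitor libraries and 12.9, 23.7 and 45.3 CPM downstream. It was 4.76-fold lower in the stem and progenitor group (log2 −2.25 ± 0.16 SE, adjusted p = 1.37e-08), with no overlap. Zfp423 encodes a factor with 27 finger patterns that is known to commit cells to the fat lineage and to bind EBF proteins. It had 5.95, 7.73 and 14.2 CPM in the stem and progenitor libraries and 24.2, 31.5 and 43.0 CPM downstream, again with no overlap (log2 −1.99 ± 0.16 SE, adjusted p = 5.31e-08).

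The remaining 8 of the 10 largest falls ranged from log2 −1.50 for Zfp62 to −1.38 for Zfp113. Zfp57, a KRAB protein that keeps imprinted regions methylated, had 2.76 to 6.86 CPM in stem and progenitor libraries and 6.32 to 21.7 CPM downstream (log2 −1.48 ± 0.20 SE, adjusted p = 1.57e-05), and its groups overlapped slightly. Zfp318, known from the processing of immunoglobulin RNA in B cells, had 4.78 to 9.05 CPM against 11.1 to 19.8 CPM without overlap (log2 −1.40 ± 0.16 SE). Zfp532, Zfp513, Zfp329 and Zfp319 did not overlap either, while Zfp113 did. Leaving out each of the 16 libraries in turn kept the 20 named genes past the threshold and in the same direction.

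**Figure D2:**
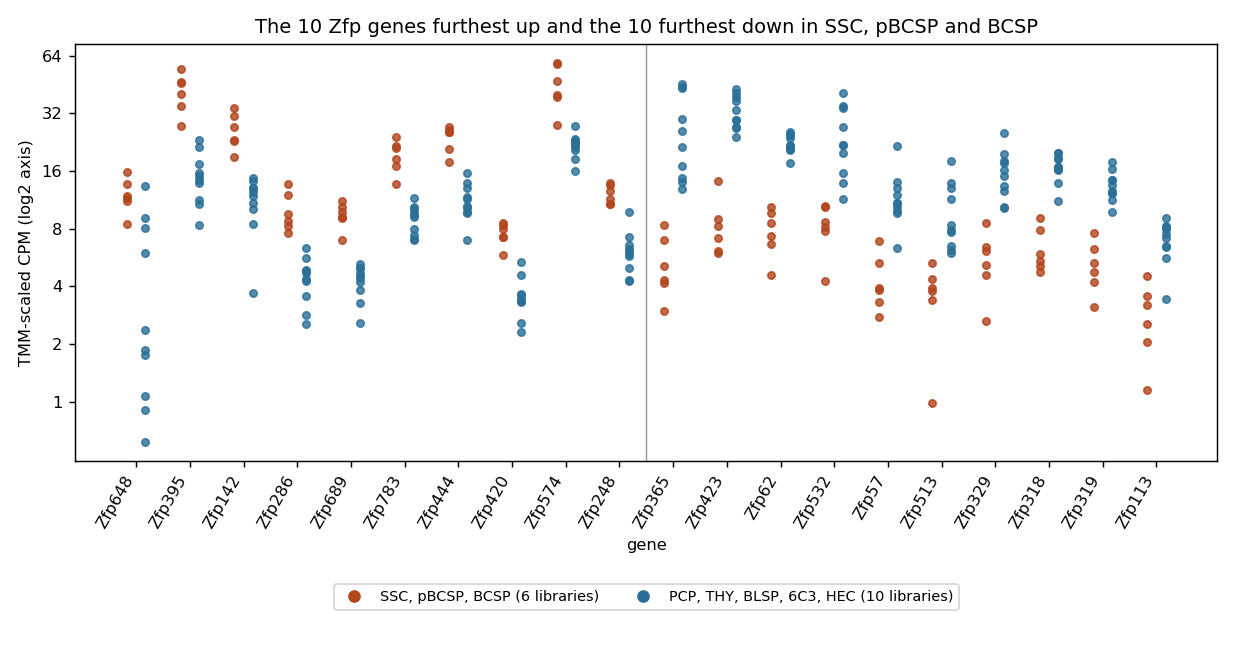
Normalised CPM (log2 axis) of the 20 Zfp genes with the largest changes, 1 point per WT input library, with the 6 stem and progenitor libraries at the left of each gene and the 10 downstream libraries at the right. Of the 10 genes that rose, Zfp648 overlapped between the groups, and of the 10 that fell, Zfp57 and Zfp113 did.

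Each population was also asked for the Zfp gene with the largest excess over the other 7, which names 5 genes. Zfp648 led in SSC and pBCSP. Zfp777 led in BCSP, at 11.3 ± 0.0928 CPM (SD, n = 2) against population means of 3.05 to 7.23 CPM elsewhere. Zfp513 led in PCP, at 12.9 ± 7.33 CPM (SD, n = 2), a value with wide replicate spread and below its mean of 13.4 CPM in 6C3. Zfp185 led in THY and BLSP, at 54.2 ± 4.55 and 55.6 ± 5.15 CPM (SD, n = 2 each), and was lowest in SSC at 10.2 ± 0.203 CPM. It is named as a zinc finger gene but encodes an actin-associated LIM protein. Zfp365 led in 6C3 and HEC, at 44.4 ± 1.15 and 36.9 ± 9.87 CPM (SD, n = 2 each), against 4.04 to 4.23 CPM in BCSP and SSC. All 5 differed among the 8 populations, with adjusted p from 4.05e-07 for Zfp365 to 0.00786 for Zfp513. Counted by the population with the highest mean, pBCSP held the peak of 35 Zfp genes, 6C3 of 27, SSC and BLSP of 26 each, BCSP and PCP of 18 each, HEC of 17 and THY of 14.

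Of the 27 listed Zfp genes with a known role, 23 were expressed here, and Zfp217, Zfp384, Zfp462 and Zfp467 were below the threshold. Zfp521, an EBF1 and Runx2 antagonist of cartilage and bone and the nearest relative of Zfp423, was abundant in every population. Its mean was 50.5 ± 3.43 CPM in SSC, 74.5 ± 17.4 CPM in pBCSP and 41.8 ± 20.4 CPM in BCSP (SD, n = 2 each), and between 77.6 ± 22.4 CPM in HEC and 95.4 ± 0.824 CPM in THY in the downstream populations (SD, n = 2 each). pBCSP was level with HEC within their spread, so the groups overlapped. Over the 2 groups its log2 change was −0.66 in the stem and progenitor populations (adjusted p = 0.00222). The 5 genes most like it, among 20059 others, were Naaladl2, Gm42973, Sipa1, Egfl6 and Fbln1, with Pearson r of mean log2 CPM over the 8 populations from 0.983 to 0.992, a description over 8 points from shared libraries.

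Of these 23 genes, 10 were lower (43.5%) and 2 higher (8.70%) in the stem and progenitor populations, where 28.3% and 23.1% of all tested genes and 34.1% and 31.4% of those with at least 5 CPM were. Zfp106, an RNA-binding protein needed in motor neurons and muscle, had log2 −1.24 (adjusted p = 7.44e-08), and Zfp638, which silences unintegrated retroviral DNA, log2 −0.90 (adjusted p = 1.09e-05). Zfp326, of the DBIRD complex that couples splicing to transcription, had log2 −0.72 (adjusted p = 6.42e-05). Zfp809 (−0.61), which silences endogenous retroviruses, Zfp622 (−0.45), a ribosome maturation factor, Zfp516 (−0.72), a brown fat factor, and Zfp143 (−0.47), a promoter-binding activator, also passed with lower levels. In the other direction, Zfp91, a ubiquitin ligase of the NF-kB pathway, was at log2 0.54 (adjusted p = 0.0139) and Zfp207 at 0.36 (adjusted p = 0.0228). The 11 genes Zfp36, Zfp64, Zfp148, Zfp219, Zfp260, Zfp281, Zfp335, Zfp568, Zfp598, Zfp703 and Zfp706 did not pass. Zfp57, Zfp423 and Zfp521 make up the rest of those that were lower.

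The partners through which KRAB proteins silence DNA were described beside them, from a list of 23 corepressor and H3K9 methylation genes, all of which were tested. In stem and progenitor populations 12 of them were lower and 2 higher, with a median log2 change of −0.34. These are 52.2% and 8.70% of the list, against 28.3% and 23.1% of all tested genes and 34.1% and 31.4% of those with at least 5 CPM, where the medians were −0.11 and −0.03. Trim28, the corepressor that binds the KRAB box, had 39.2, 47.8 and 64.8 CPM against 34.3, 49.1 and 72.8 CPM and did not pass (log2 0.05, adjusted p = 0.787), and neither did the methyltransferase Setdb1 (log2 0.14, adjusted p = 0.533). The maintenance DNA methylation genes Dnmt1 (log2 −1.54, adjusted p = 2.75e-06) and Uhrf1 (log2 −1.40, adjusted p = 3.76e-05) and the deacetylase gene Hdac2 (log2 −1.78, adjusted p = 7.03e-08) were lower, while Hdac1 (log2 0.58) and Daxx (log2 0.57) were higher. Fam208a, the mouse name used in the table for the HUSH subunit Tasor, was the lowest of the list (log2 −2.14, adjusted p = 9.04e-07). Among other zinc-finger sets with at least 5 CPM, 6 of 27 Zbtb genes were higher and 9 lower, 4 of 14 Klf genes higher and 6 lower, 3 of 11 Zscan and Zkscan genes higher and 1 lower, and 1 of 11 Zc3h genes higher and 5 lower. Their shares ran from 9.09% to 28.6% higher and from 9.09% to 45.5% lower, to be read against the same 31.4% and 34.1%.

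The second comparison asked how far Zfp mRNA was recovered by the m6A antibody. The measure is the ratio of IP to input, on the log2 scale, where 0 means that a gene took the same share of both libraries after scaling. No spike-in is described, so the ratio is relative to the other genes of the library and is not a fraction of modified molecules. Over the 8 WT populations 36 Zfp genes had IP above input and 78 had IP below input (edgeR, adjusted p below 0.05). The shares of 19.9% and 43.1% compare with 17.2% and 25.2% of 25365 tested genes, and with 26.8% and 48.1% of the genes with at least 5 CPM. The median log2 ratio was −0.36 in the Zfp genes, 0.00 in all tested genes and −0.33 in the genes with at least 5 CPM, so the Zfp genes were close to other genes chosen by the same level. Inputs entered both the choice of the genes and the ratio, and the genes with at least 5 CPM share that choice. With DESeq2's size factors the median of all tested genes moved from 0.00 to 0.13 and that of the Zfp genes from −0.36 to −0.23, which leaves the distance between them almost as it was.

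The 3 highest ratios were those of Zfp691, Zfp560 and Zfp704. Zfp691 had 16 replicate ratios from 0.18 to 2.99, with a median of 1.92, all above 0 (fitted log2 ratio 1.79 ± 0.18 SE, adjusted p = 1.16e-09). Zfp560 ranged from 0.95 to 2.33 with a median of 1.54, and Zfp704, a protein induced by glucocorticoids, from 1.08 to 2.44 with a median of 1.49. In both, each of the 16 ratios of same-numbered IP and input libraries was above 0. The fitted values were 1.63 ± 0.12 SE for Zfp560 (adjusted p = 3.58e-12) and 1.58 ± 0.13 SE for Zfp704 (adjusted p = 1.47e-11), about 3-fold.

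The other 7 of the 10 highest were Zfp503 (log2 ratio 1.56), Zfp644 (1.43), Zfp91 (1.35), Zfp101 (1.12), Zfp950 (1.04), Zfp516 (0.97) and Zfp275 (0.92). All but Zfp101 had every replicate ratio above 0, and Zfp101 had 1 of 16 below, at −0.04. Zfp503 encodes a developmental corepressor of the Nolz family.

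At the other end, Zfp648 and Zfp768 were recovered least. Zfp768 had 16 replicate ratios from −6.70 to −0.81, with a median of −3.57, none above 0 (fitted log2 ratio −3.49 ± 0.41 SE, adjusted p = 2.7e-08). Zfp648 ranged from −7.46 to 0.83 with a median of −3.87 and had 15 of 16 ratios below 0 (fitted −3.56 ± 0.51 SE, adjusted p = 9.42e-07). Its IP was thus 11.8-fold below input by the fit, with a wide spread between libraries at its low level. Zfp212 (−2.65 ± 0.16 SE), Zfp382 (−2.17 ± 0.24 SE), Zfp276 (−2.15 ± 0.31 SE) and Zfp687 (−2.14 ± 0.15 SE) completed the 6 lowest, and all but Zfp276 had every ratio below 0. All 16 genes named for their ratio stayed past the threshold when any 1 of the 32 libraries was left out.

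**Figure D3:**
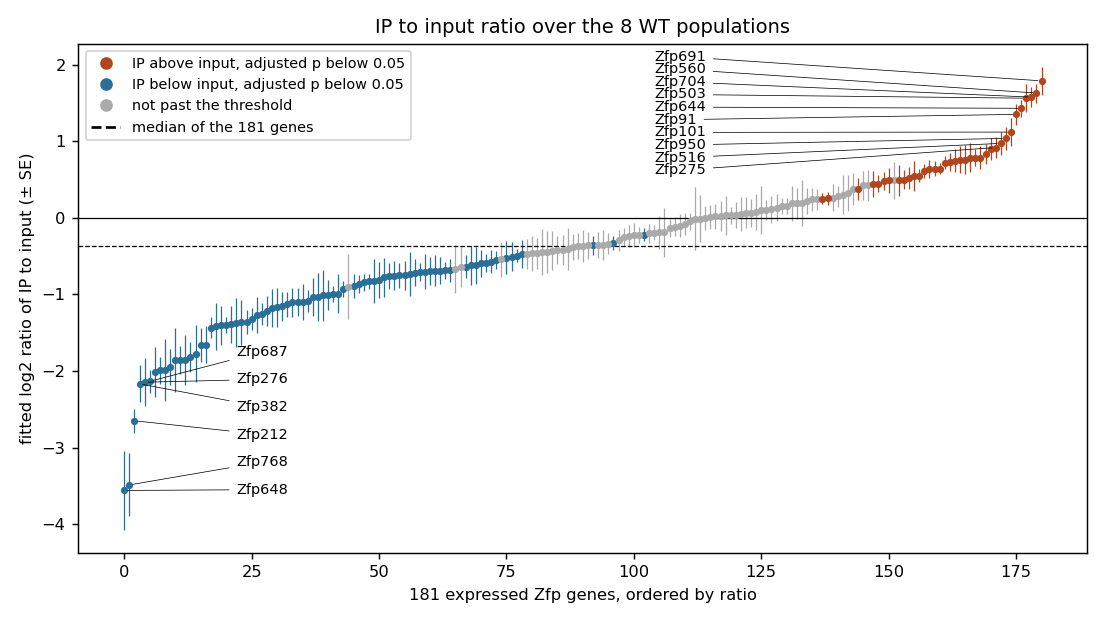
Fitted IP to input ratio (log2) across the 8 WT populations for the 181 expressed Zfp genes, in order of the ratio, with bars of 1 SE and colours for the call at an adjusted p below 0.05. The dashed line is their median of −0.36, Zfp691 is highest at 1.79 and Zfp648 lowest at −3.56.

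Among the known genes, 9 of 23 had IP above input and 9 below (39.1% each), against 17.2% and 25.2% of all tested genes and 26.8% and 48.1% of those with at least 5 CPM. The list is short and was chosen by known role, and no test was made over it. Zfp91 (1.35), Zfp516 (0.97), Zfp598 (0.76), which marks collided ribosomes, and Zfp326 (0.72) were recovered best. Zfp219, a cofactor of Sox9 in cartilage, had the lowest ratio of the list at −1.95 (adjusted p = 5.44e-08), followed by Zfp64 (−1.44), Zfp335 (−1.40), Zfp622 (−1.40) and Zfp57 (−1.37). Zfp521 was below 0 at −0.87 (adjusted p = 1.85e-07), with population means between −1.42 in PCP and −0.02 in BCSP, while its relative Zfp423 did not pass (−0.23, adjusted p = 0.228). Zfp36 did not pass either (−0.23, adjusted p = 0.0884).

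The study's rule for an m6A-tagged gene, an IP at least 2-fold above input with an unadjusted p below 0.05 in 1 population, was applied with edgeR in each population. The Zfp genes tagged were 18 in SSC (9.94%, against 10.4% of all tested genes), 25 in pBCSP (13.8% against 12%) and 13 in BCSP (7.18% against 6.67%). In the downstream populations they were 9 in PCP (4.97% against 10.6%), 11 in THY (6.08% against 12.4%), 6 in BLSP (3.31% against 12.4%), 8 in 6C3 (4.42% against 14.5%) and 11 in HEC (6.08% against 13.5%). Among genes with at least 5 CPM, the closest comparison, 12.4% were tagged in SSC, 14.2% in pBCSP and 8.46% in BCSP, then 10.2%, 11.9%, 10.4%, 12.5% and 12% in PCP, THY, BLSP, 6C3 and HEC. The Zfp share was below these in all 8 populations, by most in the downstream ones, and this difference was not tested. In all, 35 genes were tagged in at least 1 population (19.3%, against 26.2% of all tested genes and 23.1% of those with at least 5 CPM). Only Zfp560 and Zfp704 were tagged in all 8 (1.1%, against 1.76% and 3.46%), Zfp91, Zfp503, Zfp644 and Zfp691 in 7, and 146 in none.

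In edgeR 0 of the 181 genes passed an adjusted p below 0.05 for a ratio that differed among the 8 populations, where 0.485% of all tested genes did. At an unadjusted p below 0.05 there were 19 (10.5%, against 7.97% of all). DESeq2 called 8 after adjustment, without a share over all genes to set beside them. The smallest p values were those of Zfp523 (0.000987), Zfp106 (0.00143), Zfp654 (0.00215), Zfp334 (0.00308) and Zfp507 (0.0081), followed by Zfp276, Zfp319 and Zfp648. Zfp523 ranged from −3.66 to 0.00 over its 16 ratios.

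A single contrast of the ratio between the stem and progenitor populations and those downstream, added after the data had been seen, called 11 Zfp genes higher and 1 lower. Of all tested genes 3.06% were higher and 1.77% lower, and of those with at least 5 CPM 7.09% and 2.23%, so the Zfp shares of 6.08% and 0.552% were close to those of genes of similar level. The median difference was 0.18 in the Zfp genes, −0.08 in all tested genes and 0.15 in genes with at least 5 CPM. This contrast moved with scaling and with the libraries. With DESeq2's size factors the calls were 6 higher and 3 lower, the median of all tested genes was −0.24 and that of the Zfp genes 0.00. Mitochondrial transcripts took 1.56% to 2.92% of the counts of the 6 stem and progenitor IPs and 4.52% to 9.09% of the 10 downstream IPs, with no overlap, and 0.427% to 0.717% and 0.286% to 1.40% of the inputs. Their part in the difference was not tested.

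Zfp106, Zfp318, Zfp445, Zfp507 and Zfp654 kept this call with any 1 of the 32 libraries left out. Zfp106 had 6 ratios of 1.02, 1.11 and 1.40 as lowest, median and highest in the stem and progenitor populations and 10 ratios of 0.01, 0.29 and 0.92 downstream (difference 0.80 ± 0.15 SE, adjusted p = 0.00193). The groups did not overlap, and Zfp106 was tagged in SSC, pBCSP and BCSP and in no downstream population. Zfp318 was tagged in the same 3 populations, with ratios of 1.18 to 2.33 against −0.46 to 1.06, and its groups were apart as well. Both of these genes were at the same time lower in mRNA in the stem and progenitor populations, and the inputs are shared by the 2 comparisons.

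Zfp507 had ratios of 0.53 to 1.30 against −0.77 to 0.40 (difference 1.30 ± 0.29 SE, adjusted p = 0.00843). Zfp654 overlapped, with 0.14 to 1.76 against −1.71 to 0.57 (difference 1.60 ± 0.36 SE, adjusted p = 0.00771). Zfp445, an imprinting regulator that works beside Zfp57, had −0.18 to 0.81 against −0.88 to 0.09 (difference 1.03 ± 0.23 SE, adjusted p = 0.00853). The largest fitted difference, that of Zfp513 (2.25 ± 0.63 SE, adjusted p = 0.0334), rested on BCSP IP replicate 1, without which it was 0.97 with adjusted p = 0.36. More than 20% of the exon bases of Zfp106 and Zfp507 are shared with genes on the opposite strand.

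**Figure D4:**
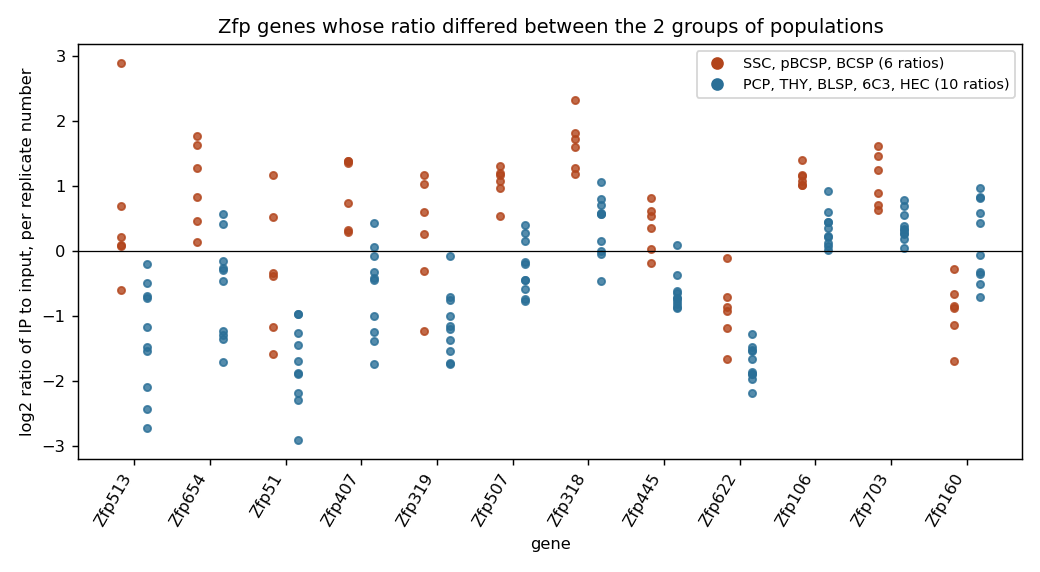
Log2 ratio of IP to input, 1 point per replicate number, for the 12 Zfp genes called between the 6 ratios of SSC, pBCSP and BCSP and the 10 ratios of the downstream populations. Zfp106, Zfp318 and Zfp507 are apart between the groups, and Zfp160 is the 1 gene lower in the stem and progenitor populations.

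The 38 Zfp genes with 0 to 4 finger patterns had a median ratio of −0.09, with 14 above and 14 below, the 60 with 5 to 9 fingers −0.45, with 11 above and 29 below, and the 81 with 10 or more fingers −0.42, with 11 above and 33 below. The 80 genes with AAACC in a linker had a median of −0.45 and the 36 with linkers but no AAACC −0.39, while the 63 without the linker had −0.08. These classes also differed in level, with median CPM of 8.74, 11.4 and 18.4, and in median GC content (43.0%, 50.0% and 51.9%). Spearman's rho of the ratio with AAACC per kb was 0.05 in Zfp genes and 0.14 in 9792 other protein-coding genes. With GGACT per kb it was −0.17 and −0.12. The part of these motifs in the ratio was not tested. Genes with a KRAB pattern had a median of −0.38 (36 genes) and those without −0.36 (143 genes). Spearman's rho between the ratio and exon length was 0.29 over 179 Zfp genes and 0.07 over 9793 other protein-coding genes, and that with GC content −0.26 and −0.30, as descriptions over genes of the same libraries.

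Neighbouring genes were described for the clusters of 4 or more, whose counts are small and are to be read against the 48.1% with IP below input, 26.8% above, 31.4% higher and 34.1% lower among genes with at least 5 CPM. In the 6-gene cluster on chromosome 7 from 127233061 to 127449158, which holds Zfp553, Zfp771, Zfp768, Zfp747, Zfp688 and Zfp689, 5 genes had IP below input and none above, and 3 were higher and none lower in the stem and progenitor populations. The 7-gene cluster on chromosome 6 with Zfp212, Zfp777 and Zfp783 had 4 genes higher and none lower in mRNA, with 2 above and 4 below in the ratio. The 4 genes near Zfp560 on chromosome 9 went the other way, with 2 above input and none below, and 1 higher and 2 lower in mRNA. Near Zfp787 and near Zfp180 on chromosome 7, 3 of 4 genes each had IP below input, with 2 and 1 higher and none lower in mRNA. The 4 genes Zfp51, Zfp52, Zfp53 and Zfp948 on chromosome 17 all had IP below input, and 2 of them were lower in mRNA in the stem and progenitor populations. The largest cluster, on chromosome 7, was mixed, with 3 higher and 2 lower in mRNA, none above and 4 below in the ratio, and a median correlation of −0.11 between its genes over the 8 population means. In the other clusters this correlation was 0.69 near Zfp51, 0.54 near Zfp553 and 0.37 in the 7-gene cluster on chromosome 6. It was 0.06 near Zfp787, −0.33 near Zfp180 and −0.45 near Zfp560.

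The third comparison asked how Zfp mRNA differed in the 6 inputs labelled Mettl3cko from the 6 WT inputs of the same 3 populations. These WT inputs also entered the choice of the genes and the first 2 comparisons. Over SSC, pBCSP and BCSP, 5 Zfp genes were higher (2.76%) and 9 lower (4.97%) at an adjusted p below 0.05 (edgeR), where 3.75% and 2.72% of 18655 tested genes and 6.16% and 4.3% of those with at least 5 CPM were. At an unadjusted p below 0.05 there were 16 higher and 26 lower (8.84% and 14.4%), against 10.7% and 11.7% of all. The median log2 change was −0.09 in the Zfp genes, −0.05 in all tested genes and −0.01 in genes with at least 5 CPM. For 9 Zfp genes the 6 and 6 libraries did not overlap (4.97%), against 4.08% of all tested genes and 6.1% of those with at least 5 CPM. The shares were near the background, with the lower calls somewhat above it and the higher calls below it.

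Zfp648, Zfp560 and Zfp783, the last annotated as a pseudogene, were lower in the Mettl3cko libraries without overlap. Zfp648 had 8.08, 11.2 and 15.2 CPM as lowest, median and highest in WT and 1.42, 5.21 and 6.32 CPM in Mettl3cko (2.61-fold lower, log2 −1.38 ± 0.32 SE, adjusted p = 0.0255). Zfp783 had 13.2, 19.0 and 23.1 CPM in WT and 5.82, 8.25 and 10.8 CPM in Mettl3cko (log2 −1.13 ± 0.22 SE, adjusted p = 0.0131). Zfp560, tagged in all 8 WT populations, had 11.2, 14.7 and 19.0 CPM in WT and 7.16, 8.27 and 9.69 CPM in Mettl3cko (log2 −0.85 ± 0.18 SE, adjusted p = 0.02).

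In the separate fits of SSC, pBCSP and BCSP, Zfp648 had log2 changes of −1.11, −1.53 and −1.53 and Zfp783 of −1.20, −1.31 and −0.90, each with an unadjusted p below 0.05. Zfp560 had −0.89, −0.63 and −1.05, and the value in pBCSP did not pass (unadjusted p = 0.139). Zfp648 and Zfp783 were also among the genes with the largest excess in WT stem and progenitor populations, and the same WT inputs serve both comparisons.

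Zfp383 changed as much as Zfp648 (log2 −1.38 ± 0.30 SE, adjusted p = 0.0209), with 6.85 to 12.3 CPM in WT and 1.28 to 7.51 CPM in Mettl3cko, so its groups overlapped. Zfp788 (−1.14), Zfp395 (−1.10), Zfp938 (−0.99) and Zfp90 (−0.89) had an unadjusted p below 0.05 but adjusted p from 0.0582 to 0.121, and nearly 80% of the exon bases of Zfp90 are shared with a gene on the opposite strand. The other genes called lower were Zfp260, Zfp68, Zfp9, Zfp386 and Zfp362, between −0.52 and −0.80. They fall outside the rule for named genes and were chosen after their values were seen.

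In the other direction, Zfp652 and Zfp189 were higher without overlap. Zfp652 had 28.0, 35.8 and 46.5 CPM in WT and 46.7, 59.2 and 132 CPM in Mettl3cko (log2 0.91 ± 0.23 SE, adjusted p = 0.0396), and its 2 ranges nearly touched. Zfp189 had 4.81, 9.71 and 10.5 CPM in WT and 10.7, 16.6 and 21.8 CPM in Mettl3cko (log2 0.84 ± 0.18 SE, adjusted p = 0.0193). Zfp263 showed the largest rise, from 38.7, 55.8 and 68.6 CPM in WT to 64.6, 111 and 154 CPM in Mettl3cko, with some overlap (1.94-fold, log2 0.95 ± 0.21 SE, adjusted p = 0.023).

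Zfp948 (log2 0.68, adjusted p = 0.0359) and Zfp281 (0.57, adjusted p = 0.0284), a regulator of pluripotent cells, were the other 2 called higher, and Zfp281 was named after its values were seen. Zfp52, Zfp691, Zfp334 and Zfp809 had log2 values of 0.60 to 0.87 with adjusted p from 0.11 to 0.222. Zfp691, which had the highest WT ratio, was at 0.71 with adjusted p = 0.213. Of the 23 known genes, Zfp281 and Zfp260 were the 2 that passed, 1 higher and 1 lower (4.35% each). Among all tested genes 3.75% and 2.72% were, and among those with at least 5 CPM 6.16% and 4.3%. Zfp36 was at −0.40 (adjusted p = 0.169), Zfp521 at −0.45 (adjusted p = 0.195) and Zfp423 at −0.21 (adjusted p = 0.798).

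**Figure D5:**
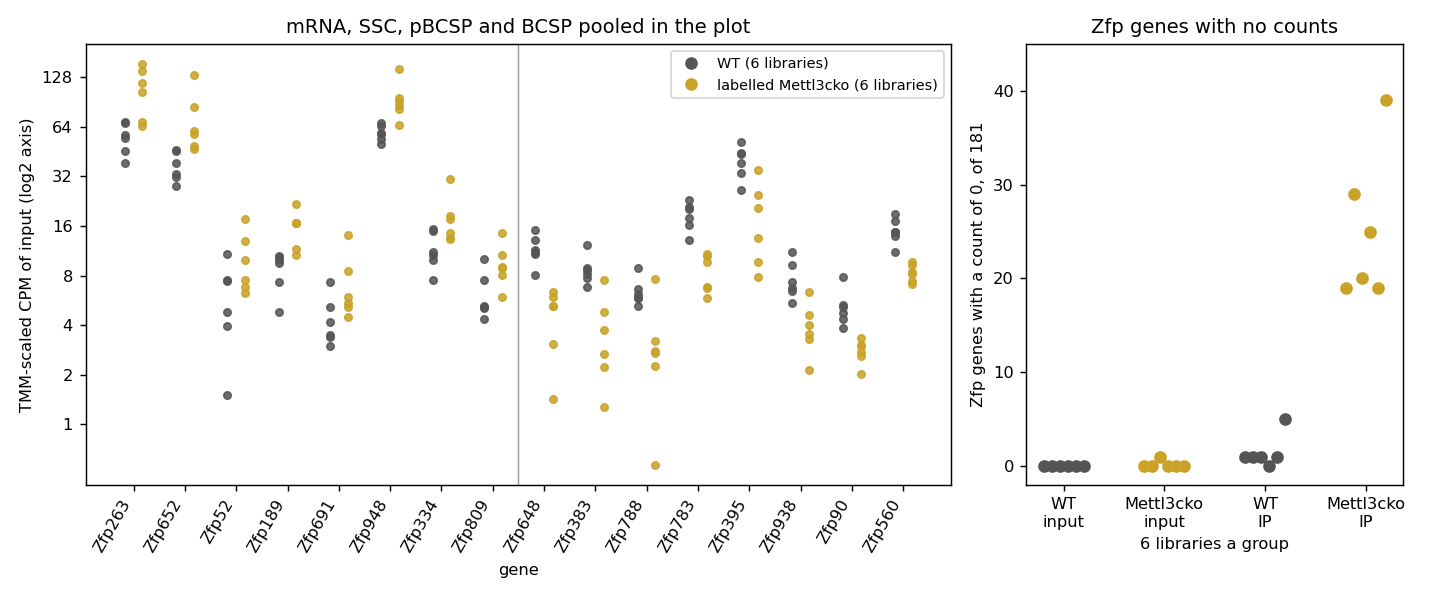
Left, normalised CPM of input (log2 axis) for the 16 named Zfp genes, 1 point per library, with 6 WT libraries beside 6 labelled Mettl3cko. Right, the number of the 181 Zfp genes with a count of 0 in each library of SSC, pBCSP and BCSP, which is 19 to 39 in the Mettl3cko IPs and at most 5 in the other 3 groups.

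Cartilage markers summed to 58179 to 97869 CPM in the 6 Mettl3cko inputs and bone markers to 3923 to 17319 CPM, ranges that overlap those of the WT inputs, and their part in these changes was not tested. The counts rested on single libraries. When any 1 of the 12 libraries was left out, the number of Zfp genes called higher ran from 0 without WT pBCSP replicate 2 to 7 without Mettl3cko pBCSP replicate 2, and the number called lower from 2 to 19 for the same libraries. A difference of the change among the 3 populations was called for 0 Zfp genes at an adjusted p below 0.05 by edgeR (0% of all tested genes). DESeq2 called 0 Zfp genes and 39 of all genes. In edgeR 6 Zfp genes had an unadjusted p below 0.05 (3.31%, against 4.5% of all). At the study's thresholds in single populations, a log2 change beyond 0.5 with an unadjusted p below 0.05, 8 Zfp genes were higher and 19 lower in SSC (4.42% and 10.5%, against 6.96% and 7.07% of all tested genes). In pBCSP 1 was higher and 8 lower (0.552% and 4.42%, against 3.88% and 4.48%), and in BCSP 12 were higher and 11 lower (6.63% and 6.08%, against 7.22% and 5.72%). Among genes with at least 5 CPM, the shares for SSC were 8.68% higher with 8.8% lower, those for pBCSP 4.9% higher with 4.66% lower, and those for BCSP 9.31% higher with 6.95% lower. After adjustment edgeR called 0 Zfp genes in each single population. On simulated counts this test recovered 3.5% of 2-fold changes in SSC, so 0 calls do not show an absence of change. The KRAB corepressor list showed 1 gene higher, Cbx1 (log2 0.91, adjusted p = 0.00323), and none lower.

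The fourth comparison asked whether the ratio of IP to input differed in the Mettl3cko libraries. In edgeR 11 Zfp genes had a lower ratio (6.08%) and 0 a higher one, where 3.3% and 0.643% of 20360 tested genes did, and 3.44% and 1.22% of those with at least 5 CPM. The count of lower ratios was not stable. It ran from 4 without WT pBCSP input replicate 1 to 34 without Mettl3cko SSC IP replicate 1, and among Zfp genes with at least 10 CPM the share was 3.92%. At an unadjusted p below 0.05 the counts were 33 lower and 6 higher (18.2% and 3.31%), against 13.4% and 3.58% of all. DESeq2 called 24 lower and 4 higher after adjustment. Its share over all genes is not given here, so these counts are no result about the family. The median change of the ratio was −0.35 in the Zfp genes, −0.39 in all tested genes and −0.08 in genes with at least 5 CPM.

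The calls rested on counts near 0 in the Mettl3cko IPs, so their fitted changes depend on the prior count and the counts are given instead. Zfp709 had 88 to 203 counts in the 6 WT inputs, 44 to 302 in the 6 WT IPs and 82 to 188 in the 6 Mettl3cko inputs, but 0 in 5 of the 6 Mettl3cko IPs and 2 in the other. Zfp689 had at most 4 counts in each of the 6 Mettl3cko IPs, against 6 to 153 in the WT IPs. Zfp809 had 0 counts in 5 Mettl3cko IPs and 30 in 1, against 2 to 215 in the WT IPs. These genes were low in every Mettl3cko IP.

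The other 8 were near 0 in some Mettl3cko IPs and had more counts in others. Zfp420 had 0 counts in the 4 IPs of SSC and pBCSP and 353 and 394 in the 2 of BCSP, and Zfp35 had 1069 and 1565 counts in SSC but 2 in each IP of pBCSP. Zfp51 ranged from 0 to 352 counts, Zfp942 from 0 to 175, Zfp120 from 0 to 300, Zfp449 from 0 to 533, Zfp668 from 0 to 848 and Zfp758 from 0 to 122.

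The same held for the whole libraries. Between 19 and 39 of the 181 Zfp genes had a count of 0 in each Mettl3cko IP, against 0 to 5 in the WT IPs of the same populations, with totals of 22085115 to 33154761 and 19457948 to 35890123 counts. Genes with any count numbered 12685 to 14415 in the Mettl3cko IPs and 16250 to 18714 in those WT IPs. The number of genes detected thus moved with the genotype in the IP libraries, and its part in the lower ratios was not tested. In the replicates where a count was high, such as Zfp35 in SSC, the Mettl3cko IP exceeded the 162 and 654 counts of the WT SSC IPs.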

How the data were processed

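Per the labels, 44 libraries of IP and input RNA were made from sorted cells with a Smart-seq2-based low-input protocol and Tn5 tagmentation. Raw read counts per gene were deposited by the authors; the submitters' processing notes name fastp 0.20.1, HISAT2 2.2.1, featureCounts 2.0.1, DESeq2 and the GRCm38 or mm10 build. The annotation, the strand setting and the treatment of reads with several matches are not given in the sources used here, and no spike-in is described. The authors' own comparisons in SSC, deposited as log2 changes with p-values, were not used. There were 128 entries with date-like names, holding at most 0.390% of a library's counts, and these were left out.

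Counts were tested in R 4.3.3 with edgeR 4.0.16 (filterByExpr, TMM, glmQLFit and glmQLFTest, with the default prior count in the fits). The fits had group means for population and fraction or genotype, and Benjamini-Hochberg adjustment over all genes tested. A prior count of 2 entered the log2 CPM and the replicate ratios, not the fitted changes. DESeq2 1.42.0 was the alternative test. CPM in the selection and in sums are scaled by library totals, and all others by TMM. Each condition had 2 libraries from pooled mice, and each sorted batch was divided between IP and input, though no source gives which libraries share a batch. No source says how far the replicates are independent, so p-values measure only the spread between these samples. Replicates differed by more than sampling noise (chi-square of 25.9 to 491 for each degree of freedom). The reads carry no molecular identifiers in the sources used here.

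The genes and lists were chosen with earlier results of these data known. Named were the 10 highest levels per kb, the 10 largest changes in each direction between stem and progenitor and downstream populations, the leader of each population, the 10 highest and 6 lowest ratios, the 8 smallest p for a ratio differing among populations, the 8 largest Mettl3cko changes in each direction at an unadjusted p below 0.05, the 6 smallest p for a changed Mettl3cko ratio, and a list of genes with known roles. The contrast of the ratio between stem and progenitor and downstream populations, and the test of Mettl3cko changes among populations, were added after the data had been seen, and the other genes called in the 2 ratio contrasts were named with their values known. Finger, KRAB and linker patterns were read from translations of the longest coding transcript in GENCODE vM21, in place of a protein table.

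On simulated counts with 200 genes changed 2-fold, the adjusted test recovered 48% in the comparison of stem and progenitor with downstream mRNA (19096 genes), 39% for IP against input (23006 genes), 38% for Mettl3cko mRNA (17764 genes) and 0% for the Mettl3cko ratio (19488 genes). In the fits of SSC alone the adjusted test recovered 3.5% for Mettl3cko mRNA (15282 genes) and 0% for IP against input (14812 genes). Fits that left out 1 library of a ratio comparison reused the genes and dispersion trend of the full fit, and a lone library was assumed to vary like the other groups.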

Additional observations from a re-analysis of the deposited data

Results flagged for a closer look

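For 12 Zfp genes the log2 ratio of IP to input differed between the stem and progenitor and the downstream WT populations, by the contrast added after the data had been seen (edgeR, adjusted p below 0.05). The inputs of these ratios are those of the mRNA comparison, so the 2 are not independent. The differences were 0.80 for Zfp106, 1.24 for Zfp318, 1.40 for Zfp319, 1.46 for Zfp407, 1.03 for Zfp445, 1.30 for Zfp507, 1.50 for Zfp51, 2.25 for Zfp513, 0.82 for Zfp622, 1.60 for Zfp654, 0.72 for Zfp703 and −1.10 for Zfp160. When each of the 32 libraries was left out in turn, Zfp407, Zfp513 and Zfp160 passed in 11, 18 and 8 of the fits.

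For 11 Zfp genes the ratio differed between the libraries labelled Mettl3cko and WT. The fitted log2 values, which depend on the prior count where IP counts are 0, were −3.88 for Zfp120, −3.39 for Zfp35, −5.70 for Zfp420, −5.10 for Zfp449, −4.96 for Zfp51, −4.86 for Zfp668, −6.32 for Zfp689, −9.41 for Zfp709, −4.81 for Zfp758, −7.74 for Zfp809 and −5.22 for Zfp942. Zfp35, Zfp51, Zfp709 and Zfp942 passed with any 1 of 24 libraries left out, and Zfp668 and Zfp758 in 8 and 9 of these fits.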

How the results depend on the processing

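The 20 genes named between stages and the 16 named for their ratio kept direction and call under each of the 5 other settings run and with each library left out. With DESeq2's test, 8 genes had ratios differing among the 8 populations, 8 had lower ratios in the stem and progenitor populations, 9 were higher and 14 lower in Mettl3cko, 4 and 24 had higher and lower Mettl3cko ratios, and 2 were higher in Mettl3cko pBCSP. With DESeq2's size factors in edgeR, 6 genes had higher and 3 lower ratios in the stem and progenitor populations and the median ratio was −0.23. Without a filter on low counts, 4 ratios differed among populations, 7 and 2 were higher and lower in the stem and progenitor populations, 19 were lower in Mettl3cko, and 5 and 14 genes were higher and lower in Mettl3cko pBCSP. In 1 fit of all 12 inputs these were 5 and 18, and 10 were lower in SSC. With adjusted in place of unadjusted p, 23 genes were tagged in at least 1 population, 0 in all 8, and 0 changed in Mettl3cko SSC, pBCSP or BCSP in either direction. The cause of these shifts was not tested. No share over all genes is given beside the DESeq2 counts, so they are no result about the family.

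The replicate number as a block gave 3 ratios differing among populations, 3 lower in the stem and progenitor populations and 3 lower in Mettl3cko, where the median change was −0.97. The last compares with 11 without the block, 8 of which lost the call, and with a median of −0.35. Per the study, each batch of sorted cells was divided between the m6A and RNA-seq libraries, so IP and input are paired by batch, but no source says that equal replicate numbers mark 1 batch. Deviations of same-numbered IP and input libraries correlated at 0.0176 to 0.240 in WT (4 of 8 pairs above 0.1) and 0.0425 to 0.0475 in Mettl3cko (0 of 3), so the numbers were not taken as pairs and a paired fit remains an alternative.

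With 1 library left out at a time, the genes whose ratio differed among populations ran from 0 to 6, those with higher ratios in the stem and progenitor populations from 5 to 14 and lower from 0 to 10. Those higher in Mettl3cko ran from 0 to 7, lower from 2 to 19, with higher Mettl3cko ratios from 0 to 5, lower from 4 to 34 and at an unadjusted p from 30 to 75. The lowest counts came without WT BCSP IP replicate 1 (5 higher ratios), WT pBCSP input replicate 2 (mRNA) and WT pBCSP input replicate 1 (4 lower ratios), and the highest for the Mettl3cko ratio without Mettl3cko SSC IP replicate 1. Genes tagged in all 8 ran from 1 to 3. Genes higher and lower in Mettl3cko ran from 2 to 13 and 5 to 29 in SSC, 0 to 13 and 1 to 39 in pBCSP, and 6 to 10 in both directions in BCSP. The median ratio ran from −0.49 to −0.35 and the median Mettl3cko ratio change from −0.88 to −0.26. At 10 CPM, 3.92% of genes in place of 6.08% had a lower Mettl3cko ratio.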
